A study of Mus musculus with 4 samples.

Results

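The comparison described here is between the ovaries of mice given recombinant human anti-Müllerian hormone (AMH) alone and those of mice given vehicle, across all genes and cell types. It rests on 17134 cells, 8546 from the library labelled AMH (0.75mg/kg) and 8588 from the library labelled Controls (PBS/Saline). These were all cells of both libraries with at least 1000 UMIs (unique molecular identifiers, each standing for 1 captured transcript) and at most 20% of UMIs in mitochondrial genes. The series holds 33639 deposited cells, of which 30523 passed the same filter. The other 2 libraries came from mice given doxorubicin at 3 mg/kg, with or without AMH at 0.75 mg/kg. Treatment began in prepubertal mice at postnatal day 25, doxorubicin was given in 2 weekly doses, and the ovaries were collected 4 hours after the final dose. A single ovary from each of 5 mice was pooled into 1 library per group, which leaves no measure of variation between mice and allows no test between groups. The strain, the AMH schedule, the route of dosing, and whether mice on AMH alone received a vehicle in place of doxorubicin are not given in the sources used here.

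AMH is a hormone of the transforming growth factor β family that granulosa cells of growing follicles secrete. It binds the type 2 receptor AMHR2, which signals through type 1 receptors shared with the bone morphogenetic proteins (BMPs) to SMAD1, SMAD5 and SMAD9, and the Id genes and Smad6 are well-known targets of that pathway. Theca cells surround the follicle and make androgens from cholesterol through CYP11A1, HSD3B1 and CYP17A1, and granulosa cells convert these androgens to oestrogen.

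Kept cells held 177237504 UMIs in the control library (median 13722 per cell) and 166849432 in the AMH library (median 11266.5 per cell), and 24 barcodes occurred in both. Cells were assigned to types by a gate, a score over fixed marker genes, and UMIs were summed per library within each gate. Levels are given as CPM, the gene's UMIs in every 1000000 UMIs summed. Ratios are on the log2 scale after 5 CPM was added to both sides, which understates differences of low genes. The level filter kept genes whose mean CPM over both libraries reached 20, a gene is called 2-fold higher or lower at a log2 ratio of at least 1 or at most -1, and gate markers are given values but not counted. The median log2 ratio over all genes that passed was below 0 in every gate, from -0.09 in blood endothelial-gated to -0.03 in macrophage-gated cells. Intervals are 95% and cover counting error only. Each gate selects cells by its own markers, so their levels in gated cells are no check of the gate. The 6 granulosa markers summed to 4447 CPM in control and 4777 CPM in AMH granulosa-gated cells, and none was at 0. The 6 theca markers summed to 12880 CPM in control and 5535 CPM in AMH theca-gated cells. Because several theca markers themselves differed, a second theca gate on Aldh1a1 and Lhcgr only was added after the data were seen. Aldh1a1 is an aldehyde dehydrogenase of theca cells, and Lhcgr is the receptor of luteinising hormone.

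The stretches upstream of BMP target genes are shown because Id2 and Id3 were at least 2-fold higher in AMH theca-gated cells, and Smad9 as a second window with the motif. Smad9, a SMAD that carries the BMP signal, lay under the level filter in both gates, at 0.404 CPM in control and 4.18 CPM in AMH theca-gated cells and at 6.25 and 14.6 CPM in granulosa-gated cells. The RefSeq promoter table (GRCm38.p6) matched 8 of the 11 BMP targets. Promoters of 1 chromosome were left out of the matching, here and for the steroid and cholesterol genes below, but stayed in the counts over all windows. The GC-rich SMAD site GGCGCC, searched on both strands, lay in the window of 3 of these 8 (Id2, Id4 and Smad9), against 11.9% of all 32851 windows of the same 300-base length. The 250 bases before the start are printed 5′ to 3′ in gene orientation, with the motif in capitals. Id2 lies on chromosome 12 (chr12:25096093-25096342, minus strand), Smad9 on chromosome 3 (chr3:54755332-54755581, plus strand) and Id3 on chromosome 4 (chr4:136143572-136143821, plus strand). The Id3 window holds no match to these letters, although Id3 had the largest theca ratio of the Id genes.
Id2: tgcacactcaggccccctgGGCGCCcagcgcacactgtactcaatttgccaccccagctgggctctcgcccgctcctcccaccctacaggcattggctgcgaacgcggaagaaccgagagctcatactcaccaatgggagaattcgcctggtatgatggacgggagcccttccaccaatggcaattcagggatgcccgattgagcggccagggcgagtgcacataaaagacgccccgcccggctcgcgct
Smad9: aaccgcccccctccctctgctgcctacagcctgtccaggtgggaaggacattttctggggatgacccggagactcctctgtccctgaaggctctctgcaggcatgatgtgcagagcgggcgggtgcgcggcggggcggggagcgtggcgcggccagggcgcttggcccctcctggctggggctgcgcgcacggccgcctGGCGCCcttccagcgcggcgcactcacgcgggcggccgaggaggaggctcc
Id3: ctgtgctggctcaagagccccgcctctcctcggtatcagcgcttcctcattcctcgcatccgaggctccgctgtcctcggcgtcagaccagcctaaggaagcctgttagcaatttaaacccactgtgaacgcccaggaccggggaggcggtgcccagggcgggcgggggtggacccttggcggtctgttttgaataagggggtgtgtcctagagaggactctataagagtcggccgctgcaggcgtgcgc
The motif begins 231 bases before the start in Id2 and 51 bases before it in Smad9. The SF-1 site AAGGTCA (SF-1 is the nuclear receptor that drives steroid enzyme genes) was searched on both strands in the promoters of the steroid and cholesterol genes and occurred in 2 of the 24 windows of the 19 matched genes, 1 each of Dhcr7 and Hmgcs1, against 4.72% of all windows. A match of letters does not show binding.

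The widest differences lay in theca cells. In theca-gated cells 68 of 6252 genes were at least 2-fold higher in AMH (1.09%) and 131 were at least 2-fold lower (2.1%). With the gate on Aldh1a1 and Lhcgr, 76 of 6321 genes were higher (1.2%) and 148 lower (2.34%). Over all cells, without any gate, 8 of 6947 genes were higher (0.115%) and 27 lower (0.389%). The ratio plot by expression level shows how much more the theca values spread than the granulosa values.

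**Figure D1:**
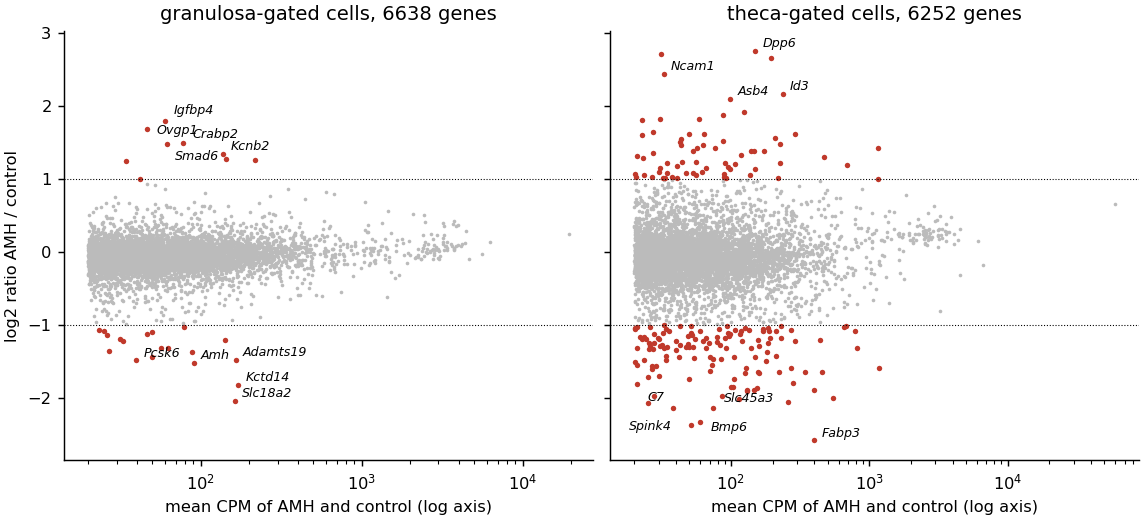
Each point is a gene, with its mean CPM over the AMH and control libraries on a log axis and the log2 ratio AMH / control on the other axis, in granulosa-gated cells (6638 genes) and theca-gated cells (6252 genes); red points lie past 2-fold (dotted lines) and the leading named genes are marked. In theca-gated cells 68 genes lie above and 131 below the 2-fold lines, against 9 and 19 in granulosa-gated cells.

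The enzymes of androgen synthesis were low in the AMH library. Cyp17a1, the enzyme that turns progestogens into androgens, stood at 323 CPM over all control cells and at 19.1 CPM over all AMH cells, a 16.9-fold difference that needs no gate, although in such a sum fewer theca cells and less RNA per cell cannot be told apart. In cells gated on Aldh1a1 and Lhcgr, Cyp17a1 was 1781 CPM (1766 to 1796) in control and 153 CPM (147 to 158) in AMH. Its level was 1690 CPM with doxorubicin and 326 CPM with doxorubicin and AMH, so both libraries with AMH lay below both without it. Cyp11a1, which makes pregnenolone from cholesterol, was 585 CPM over all control cells and 75.9 CPM over all AMH cells. Hsd3b1, the next enzyme of the pathway, was 1003 CPM and 494 CPM. Insl3, a peptide hormone of theca cells, was 13.5 CPM and 2.18 CPM.

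The lower level was also seen cell by cell. After each cell was thinned to 2000 UMIs, 82.9% of 914 control cells gated on Aldh1a1 and Lhcgr held a Cyp17a1 UMI (95% Clopper-Pearson interval 80.3 to 85.3%), against 10.9% of 717 AMH cells (8.70 to 13.4%). Without thinning, the shares were 93.8% and 26.9%, at median depths of 22240 and 16880 UMIs. Macrophage-gated cells, which should lack Cyp17a1, gave 2.63% of 152 control cells and 0 of 145 AMH cells (upper bound 2.51%) at 2000 UMIs. Unthinned, they gave 12.6% and 0.559%, at median depths of 8039 and 7255 UMIs.

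Some theca genes differed less. Star, which carries cholesterol into mitochondria, was 405 CPM in control and 313 CPM in AMH with the Aldh1a1 and Lhcgr gate. In the doxorubicin pair Star was higher with AMH, 369 CPM against 299 CPM. Lhcgr was 432 CPM in control and 391 CPM in AMH with that gate, of which it is a marker, and 488 and 355 CPM in the doxorubicin pair. Of the 13 genes of the steroid synthesis list, 7 passed the level filter in theca-gated cells and were not gate markers. All 7 lay below 0 and 4 were at least 2-fold lower (the background share of lower calls is 2.1%), with a median log2 ratio of -1.06, against -0.07 over all genes. Srd5a1, the 5α-reductase that reduces testosterone, was 187 CPM in control and 42.5 CPM in AMH theca-gated cells. Fdxr and Fdx1, which pass electrons to the mitochondrial P450 enzymes, were lower too, Fdxr at 370 and 174 CPM and Fdx1 at 4124 and 2357 CPM. Por, which serves the microsomal P450 enzymes, was 135 and 128 CPM.

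**Figure D2:**
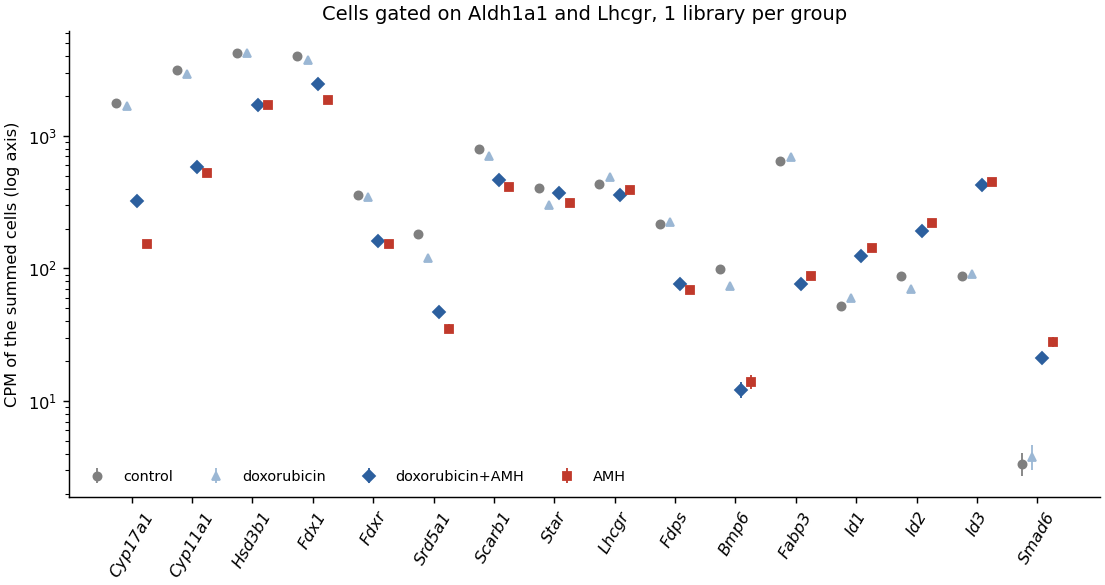
CPM on a log axis for 16 genes in cells gated on Aldh1a1 and Lhcgr, with 1 point per library and 95% exact Poisson intervals of the sums, which are mostly smaller than the symbols. Cyp17a1, Cyp11a1, Fabp3 and Bmp6 are lower, and Id1, Id2, Id3 and Smad6 higher, in both libraries with AMH than in both without it, while the Star values of the libraries with and without AMH overlap.

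Genes that make and take up cholesterol, the substrate of these enzymes, were low in theca-gated cells as well. Of the 18 genes of the list, 14 passed the level filter, all 14 lay below 0 and 12 were at least 2-fold lower, against 2.1% of all theca-gated genes. The list's median was -1.27, against -0.07 over all genes (-1.10 in the doxorubicin pair, which shares no library with this one). Fdps and Cyp51, enzymes of cholesterol synthesis, were among them, Fdps at 222 CPM in control and 78.3 CPM in AMH and Cyp51 at 193 and 57.8 CPM. Srebf2, the transcription factor that drives these genes, was 127 and 59.8 CPM. In granulosa-gated cells 8 of 10 genes of the same list lay above 0, with a median of 0.16.

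By rank, the lowest theca-gated genes were Fabp3, Spink4, Bmp6, C7, Slc45a3 and Ptprt. Fabp3, a fatty acid carrier, was 687 CPM in control and 110 CPM in AMH, and 756 and 91.6 CPM in the doxorubicin pair. Bmp6, a BMP ligand, was 102 and 16.4 CPM. C7, a complement component, was 65.2 and 10.9 CPM. Prkar2b, a regulatory subunit of protein kinase A, was 880 and 215 CPM, and Prlr, the prolactin receptor, was 1073 and 506 CPM. All 33 of the theca values past 2-fold that are named by rank or list stayed past 2-fold in the same direction with the gate on Aldh1a1 and Lhcgr.

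The highest theca-gated genes included Dpp6, Ncam1, Id3, Asb4 and Pde4d. Dpp6, a subunit of potassium channels, was 34.8 CPM in control and 265 CPM in AMH. Ncam1, an adhesion molecule, was 6.66 and 58.5 CPM. Igfbp5, which binds insulin-like growth factors, was 19.7 and 65.3 CPM. Across the IGF list 9 genes passed in theca-gated cells, 6 lay above 0, 2 were at least 2-fold higher and 1 at least 2-fold lower, against 1.09% and 2.1% of all theca-gated genes. The list's median was 0.77, against -0.07 over all genes. Igfbp7 was the other one past 2-fold upward, at 772 and 1557 CPM. Stc1, stanniocalcin 1, which inhibits the protease that frees these growth factors, was the lower one, at 338 and 105 CPM. Of the Wnt list 5 genes passed, 1 lay above 0 and 2 were at least 2-fold lower (background 2.1%), Wnt6 at 136 and 58.3 CPM and Wnt5a at 71.6 and 30.4 CPM; both encode secreted Wnt ligands.

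Several other measures moved with the theca values. All 21 genes of the immediate early and handling stress list lay above 0 in theca-gated cells, with a median of 0.41 (0.14 in the doxorubicin pair). The median share of mitochondrial UMIs was 8.04% in control and 6.06% in AMH theca-gated cells, and 68 of 75 nuclear respiratory chain genes lay below 0. The 5 erythroid markers summed to 110 CPM in control and 7.59 CPM in AMH theca-gated cells, and the 6 granulosa markers to 586 and 371 CPM. The 5 lymphatic markers summed to 33.1 and 14.9 CPM and the 6 macrophage markers to 30.0 and 16.4 CPM. With the gate on Aldh1a1 and Lhcgr the erythroid markers summed to 107.7 and 7.96 CPM, the granulosa markers to 572 and 470.1 CPM and the 7 mural markers to 135 and 204 CPM (105 and 207 CPM in the doxorubicin pair). None of these markers was at 0, and their part in the theca differences was not tested.

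BMP targets were higher in the AMH library in theca and granulosa cells. In theca-gated cells 5 of the 11 targets passed the level filter, all 5 lay above 0 and 4 were at least 2-fold higher (against a background of 1.09%), with a median of 1.22 (1.23 in the doxorubicin pair). Id3, an inhibitor of basic helix-loop-helix factors, was 82.8 CPM in control and 390 CPM in AMH. Id1 was 52.7 and 130 CPM, and Id2 was 91.9 and 207 CPM. Smad6, an inhibitory SMAD of this pathway, lay under the level filter at 3.57 CPM in control and 22.1 CPM in AMH. In granulosa-gated cells 6 of 11 targets passed and all 6 lay above 0, with a median of 0.48 (0.43 in the doxorubicin pair), but only Smad6 was past 2-fold (the background share of higher calls is 0.136%), at 30.4 CPM (29.1 to 31.7) in control and 93.7 CPM (91.6 to 95.8) in AMH. After thinning to 2000 UMIs, 4.62% of control and 14.4% of AMH granulosa-gated cells held a Smad6 UMI, against 0 of 152 and 2.76% of 145 macrophage-gated cells (unthinned 33.9% and 53.3% of granulosa-gated cells, at median depths of 23880 and 17790 UMIs, and 2.11% and 7.26% of macrophage-gated cells, at 8039 and 7255 UMIs). Granulosa Id2 was 197 and 340 CPM, while Id3 was 423 and 444 CPM and Id1 was 206 and 215 CPM.

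In stroma, mural and blood endothelial cells Id1 was lower in the AMH library. In mural smooth muscle-gated cells none of the 6 targets that passed lay above 0, with a median of -0.36, though the doxorubicin pair gave -0.01. Id1 was 137 CPM in control and 74.5 CPM in AMH there, and 175 and 120 CPM in stroma-gated cells. In blood endothelial-gated cells Id1 was 576 and 242 CPM, a log2 ratio of -1.23, against -0.11 in the doxorubicin pair. The list as a whole did not share this there: 2 of the 5 targets that passed lay above 0, with a median of -0.000201. The Id1 UMIs came from 186 of 218 control cells and 92 of 120 AMH cells. In macrophage-gated cells all 5 targets that passed lay above 0, with a median of 0.42, but -0.01 in the doxorubicin pair.

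**Figure D3:**
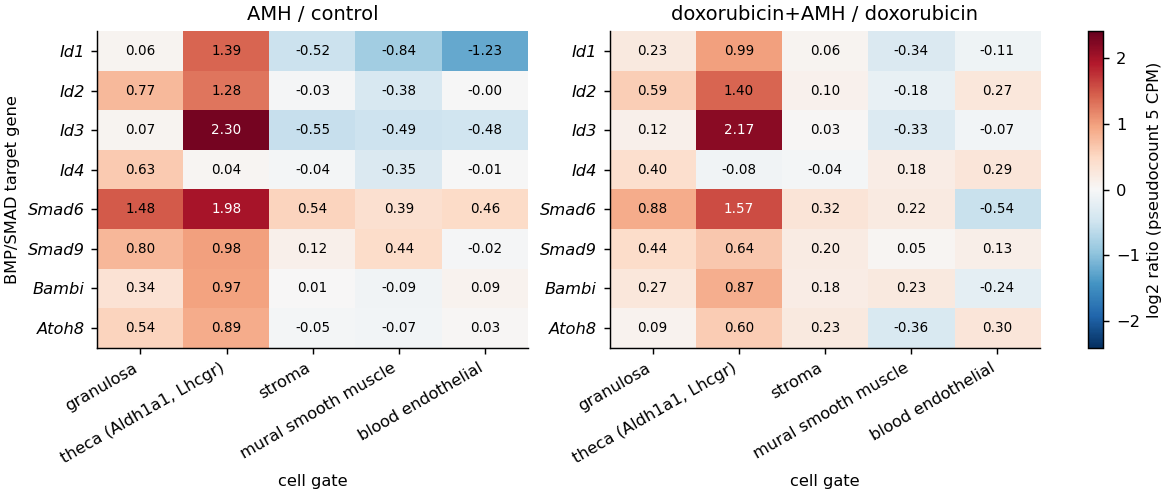
Log2 ratio of 8 BMP/SMAD target genes (rows) in 5 cell gates (columns), for AMH / control on the left and doxorubicin+AMH / doxorubicin on the right, with red above and blue below 0. The theca column is the gate on Aldh1a1 and Lhcgr, where Id3 is 2.30 and 2.17 in the 2 pairs, whereas blood endothelial Id1 is -1.23 in the first pair and -0.11 in the second.

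The receptors of the pathway stayed within 2-fold in granulosa-gated and theca-gated cells. Amhr2, the AMH receptor, was 116 CPM (114 to 119) in control and 101 CPM (98.7 to 103) in AMH granulosa-gated cells, and 56.7 and 63.6 CPM in theca-gated cells. In stroma-gated cells Amhr2 was 6.07 and 13.7 CPM, both under the level filter. Among the type 1 receptors, granulosa Bmpr1a was 167 and 165 CPM, Acvr1 was 29.2 and 30.6 CPM, and Bmpr1b was 1249 and 1145 CPM. None of the 9 receptor and SMAD genes that passed in granulosa-gated cells was past 2-fold. The sign of the theca median of this list changed with the gate, from -0.09 to 0.16 with Aldh1a1 and Lhcgr. In blood endothelial-gated cells 1 of the 8 that passed was at least 2-fold higher (background 0.474%), Bmpr1b at 31.0 CPM in control and 105 CPM in AMH. Bmpr1b was far higher in granulosa-gated cells, and granulosa markers in the endothelial gate summed to 199 and 458 CPM, a part that was not tested.

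In granulosa-gated cells 9 of 6638 genes were at least 2-fold higher in AMH (0.136%) and 19 were at least 2-fold lower (0.286%). The endogenous mouse Amh transcript was among the lower ones, at 137 CPM (134 to 140) in control and 44.6 CPM (43.1 to 46.0) in AMH, and 200 and 69.4 CPM in the doxorubicin pair. In single granulosa-gated cells thinned to 2000 UMIs, an Amh UMI was seen in 15.7% of control and 7.64% of AMH cells (unthinned 44.8% and 28.9%). Macrophage-gated cells, as a background for Amh, gave 0.658% of 152 control cells and 0 of 145 AMH cells (upper bound 2.51%), and unthinned 3.68% and 4.47%. Slc18a2, the vesicular monoamine transporter, was lowest at 265 and 60.7 CPM. Kctd14 was 270 and 72.7 CPM, and Gas6, a ligand of the TAM receptor kinases, was 200 and 83.4 CPM. Pcsk6, a convertase that processes growth factor precursors, was 60.9 and 18.6 CPM, and Dsp, the desmosome protein desmoplakin, was 74.7 and 24.5 CPM. Bcl2, an inhibitor of apoptosis, was 45.9 and 17.2 CPM. Adamts19, Cntn4, Aard, Ntng1, Mycl and Hsd11b2 complete the lowest genes by rank, with log2 ratios from -1.48 for Adamts19 to -1.22 for Hsd11b2. In granulosa-gated cells the 5 erythroid markers summed to 49.0 CPM in control and 9.64 CPM in AMH, and the 5 lymphatic markers to 9.64 and 22.1 CPM. The 7 mural markers summed to 143 and 183 CPM and the 6 theca markers to 713.5 and 655.5 CPM. Their part in the granulosa differences was not tested.

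The highest granulosa genes were Igfbp4, Ovgp1, Crabp2, Smad6, Kcnb2, Nppc and Robo2, followed by Hspa1b and Hspa1a. Igfbp4, which binds insulin-like growth factors, was 24.0 CPM (22.9 to 25.2) in control and 95.9 CPM (93.8 to 98.0) in AMH. Nppc, the precursor of the peptide that holds the oocyte in meiotic arrest, was 81.9 and 205 CPM. Crabp2, a retinoic acid carrier, was 38.4 and 117 CPM, Robo2, a SLIT receptor, was 126 and 309 CPM, and Kcnb2, a potassium channel, was 75.4 and 200 CPM. In the doxorubicin pair Igfbp4 (1.45), Nppc (1.51), Crabp2 (1.32), Robo2 (1.57) and Kcnb2 (1.33) had log2 ratios past 2-fold in the same direction, while Smad6 had the same direction at 0.88, under 2-fold.

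Ovgp1, Hspa1b and Hspa1a did not share this direction. Ovgp1, an oviduct glycoprotein, was 19.3 and 73.4 CPM in granulosa-gated cells with a log2 ratio of -0.07 in the doxorubicin pair, and 5 cells held 58.5% of its UMIs in the AMH library. Hspa1b, an inducible heat shock protein, was 18.3 and 50.6 CPM, and -0.25 on the log2 scale in the doxorubicin pair. Hspa1b was at least 2-fold higher in all 6 gates and Hspa1a in 5 of them.

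**Figure D4:**
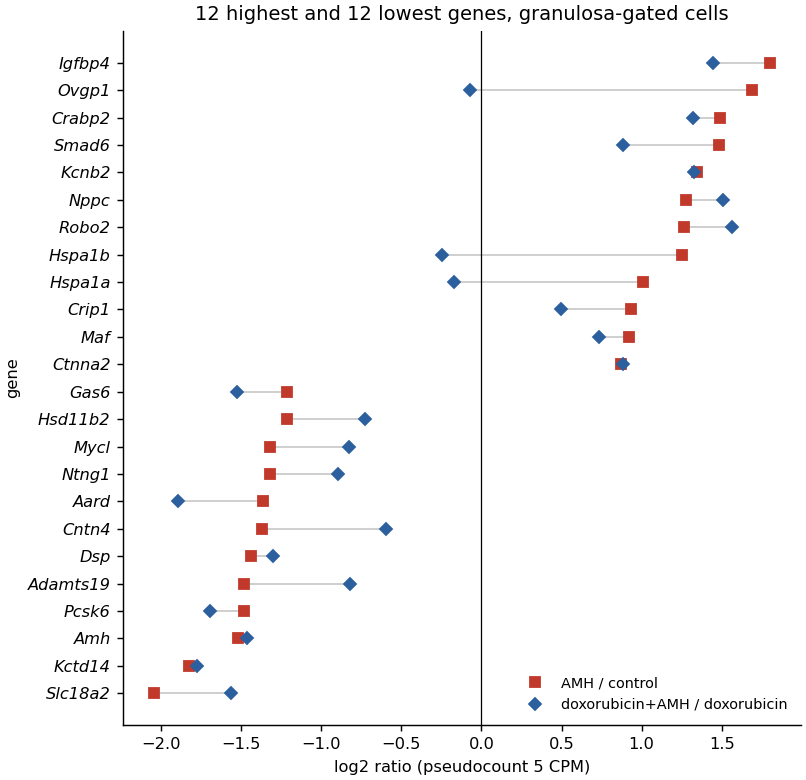
Log2 ratios of the 12 highest and 12 lowest granulosa-gated genes, with red squares for AMH / control and blue diamonds for doxorubicin+AMH / doxorubicin. All 12 lowest genes lie below 0 in both pairs, and among the 12 highest Ovgp1, Hspa1b and Hspa1a lie below 0 in the second.

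Hormone genes of granulosa cells varied in direction. Inhba, the activin βA subunit, was 495 CPM in control and 861 CPM in AMH granulosa-gated cells, and Inhbb, the βB subunit, was 177.7 and 230 CPM. All 4 Notch genes that passed lay above 0, with a median of 0.29 (0.28 in the doxorubicin pair), and Hes1, a Notch target, was 175 and 282 CPM. Fst, the activin antagonist follistatin, was 654 and 708 CPM, and Kitl, the ligand of the KIT receptor on oocytes and theca cells, was 244 and 266 CPM. The gate markers Inha and Hsd17b1 were 2260 and 2794 CPM and 318 and 499 CPM, and Fshr, the receptor of follicle-stimulating hormone, was 147 and 99.3 CPM. Msx2, a homeobox target of BMP signalling, lay far under the level filter with 1 UMI in control and 134 UMIs in AMH granulosa-gated cells, in 95 cells. Its plain ratio was 111 (log2 interval 4.29 to 12.1), and the doxorubicin pair held 2 and 78 UMIs.

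In stroma-gated cells 12 of 6674 genes were higher in AMH (0.18%) and 2 lower (0.03%), and with a mean of at least 5 CPM 69 were higher. Abcc9, a potassium channel regulator, was among the lower ones, at 46.9 CPM in control and 17.6 CPM in AMH. Tmem212, Ovgp1 and Dnah12, a dynein of cilia, were among the highest, and 5 AMH cells held 65.1% of the Tmem212, 53.2% of the Ovgp1 and 54.6% of the Dnah12 UMIs. None of these 3 was past 2-fold when each cell was weighted equally (0.84, 0.66 and 0.42) or with a doubled gate margin (0.47, 0.47 and 0.07), and Dnah12 was -0.23 with the gate after thinning. Only 1 of 31 G2/M genes lay above 0 in stroma-gated cells, with a median of -0.41 (-0.07 in the doxorubicin pair). Inhba was 13.3 and 42.4 CPM in stroma-gated cells, where the 6 granulosa markers summed to 303 and 443 CPM, and the part of granulosa RNA in that difference was not tested. Bex4 was 34.9 and 95.5 CPM in stroma-gated cells, and 37.7 and 79.3 CPM in the doxorubicin pair. All 6 fibrillar collagens lay below 0 in stroma-gated cells, with a median of -0.27 (-0.40 in the doxorubicin pair), and so did 12 of 14 basement membrane genes, with a median of -0.26. Col4a1, a collagen of basement membranes, was 1003 and 589.6 CPM there.

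In mural smooth muscle-gated cells 8 of 6564 genes were higher (0.122%) and 9 lower (0.137%). Inhba was the highest by rank. The 6 granulosa markers summed to 302 CPM in control and 468 CPM in AMH there, a part that was not tested. The lowest were Cox4i2, a subunit of cytochrome c oxidase, Colec11, Isg15 and Ndufa4l2, a relative of a respiratory chain subunit. Cox4i2 was 43.2 CPM in control and 14.0 CPM in AMH (65.9 and 31.5 CPM in the doxorubicin pair), and Ndufa4l2 was 52.1 and 20.9 CPM. Isg15, an interferon-induced protein, was 30.5 and 11.1 CPM. All interferon genes that passed lay below 0 in mural (6 genes, median -0.25), stroma-gated (10, -0.22) and blood endothelial-gated cells (14, -0.45). The medians over all genes there were -0.08, -0.07 and -0.09. In the doxorubicin pair the interferon medians were -0.12, -0.07 and -0.13.

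Blood endothelial-gated cells were few, 218 in control and 120 in AMH. There 33 of 6962 genes were higher (0.474%) and 20 lower (0.287%), and with median-of-ratios scaling the split was 42 and 10. With doublets removed the counts were 105 and 69. All 37 G2/M genes that passed lay below 0, with a median of -0.63 (-0.69 in the doxorubicin pair), as did all 18 S phase genes (-0.53 and -0.44). The highest genes were C3, Car3 and Lyz2, and 5 AMH cells held 99.8% of the C3 and 98.6% of the Lyz2 UMIs, while the 4 AMH cells with any Car3 held all of it. The 6 macrophage markers summed to 23.2 CPM in control and 136 CPM in AMH endothelial-gated cells, with 1 of them at 0 in control. The 6 granulosa markers summed to 199 and 458 CPM there, the 5 erythroid markers to 78.2 and 249.8 CPM and the 5 surface epithelial markers to 5.85 and 28.1 CPM, with none at 0. The part of these markers in the endothelial differences was not tested. In macrophage-gated cells 28 of 6406 genes were higher (0.437%) and 46 lower (0.718%), led by Ccl5 and Gpc6. Ccl5, a chemokine, was 28.1 and 227 CPM (46.4 and 135 CPM in the doxorubicin pair). Gpc6, a cell surface proteoglycan, was 46.6 and 2.89 CPM, but 2.65 and 6.62 CPM in the doxorubicin pair, the opposite direction. In macrophage-gated cells the 6 granulosa markers summed to 187.5 CPM in control and 416 CPM in AMH and the 6 stroma markers to 138.1 and 304 CPM, with none at 0, and their part was not tested. Of 81 ribosomal protein genes 80 lay above 0 in mural, 79 in stroma-gated, 78 in theca-gated, 75 in blood endothelial-gated and 60 in granulosa-gated cells, with medians from 0.06 in granulosa-gated to 0.25 in theca-gated cells.

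The gates took different shares of both libraries. Granulosa-gated cells were 25.3% of control cells (24.4 to 26.2%) and 36.5% of AMH cells (35.5 to 37.5%), and stroma-gated cells were 33.3% (32.3 to 34.3%) and 25.0% (24.1 to 26.0%). Theca-gated cells were 10.8% (10.1 to 11.4%) and 5.49% (5.01 to 5.99%), but with the gate on Aldh1a1 and Lhcgr they were 10.7% (10.0 to 11.4%) and 8.402% (7.82 to 9.01%). Cells that scored highest for theca and led by 0.05 to 0.15, on either side of the margin of 0.1 that the gate asks for, numbered 202 in AMH and 46 in control. Ungated cells were 11.8% and 18.4%. With 1 pooled library a side, these intervals do not include differences in dissection or dissociation.

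**Figure D5:**
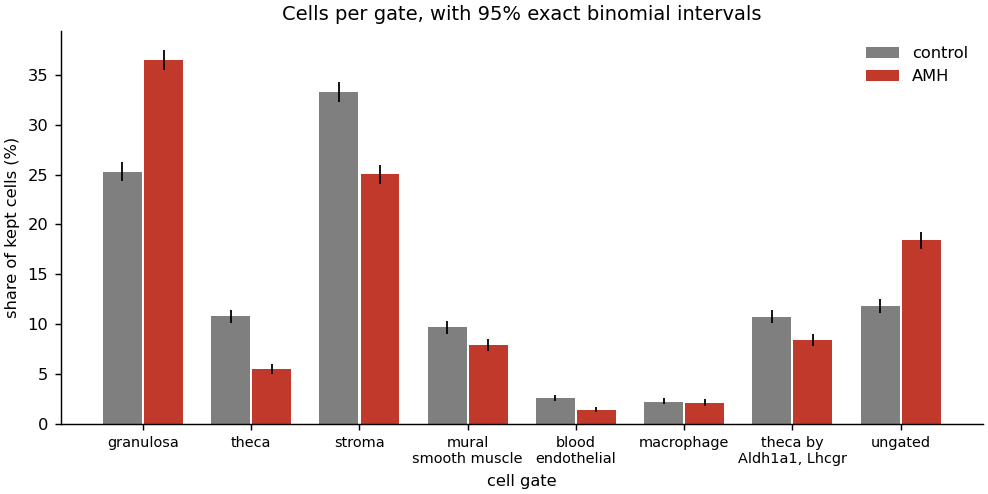
Share of kept cells in each gate (%) for the control and AMH libraries, with 95% exact binomial intervals that cover counting error only. The granulosa share is 25.3% and 36.5%, and the theca share is 10.8% and 5.49% with all theca markers but 10.7% and 8.402% with Aldh1a1 and Lhcgr.

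Cell cycle genes gave no clear order between control and AMH granulosa-gated cells. After thinning to 2000 UMIs, cells were counted if they reached 5 UMIs from the S phase list or 5 UMIs from the G2/M phase list. These were 36.2% of 2143 control cells (34.2 to 38.3%) and 42.5% of 3009 AMH cells (40.7 to 44.3%). The unthinned shares, 95.9% and 91.3%, had the opposite order, at median depths of 23880 and 17790 UMIs. At 3 UMIs in place of 5 the thinned shares were 62.7% and 71.4%, and at 8 UMIs 23.9% and 24.2%. The list medians of the summed CPM were -0.03 for S phase and -0.05 for G2/M phase, so no order is read from these shares. In the doxorubicin pair the thinned shares at 5 UMIs were 39.6% and 48.8%, with list medians of 0.10 for S phase and 0.43 for G2/M phase.

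The called genes were also read in the doxorubicin pair, which shares no library with AMH and control. Of the 68 higher theca-gated genes 64 were above 0 there and 42 past 2-fold, and of the 131 lower genes 130 were below 0 and 97 past 2-fold. Over all genes considered, 41.5% were above 0 and 58.5% below it in that pair, and 1.2% were past 2-fold higher and 2.03% past 2-fold lower. In granulosa-gated cells 6 of 9 higher and 19 of 19 lower genes had the same sign, against 41.1% of all genes above 0 and 58.9% below it, and 5 and 14 were past 2-fold, against 0.105% and 0.437% of all genes. In stroma-gated cells 9 of 12 higher and 2 of 2 lower genes had the same sign, against 39.5% above 0 and 60.5% below it over all genes. Past 2-fold were 1 and 0 of them, against 0.015% and 0.135%. In mural cells 5 of 8 higher and 9 of 9 lower genes had the same sign, against 40.9% above 0 and 59.1% below it over all genes, and 1 and 4 were past 2-fold, against 0.0609% and 0.244%. In blood endothelial-gated cells 23 of 33 higher and 16 of 20 lower genes had the same sign, against 45.2% and 54.8% of all genes, and 15 and 3 were past 2-fold, against 0.675% and 0.460%. In macrophage-gated cells 16 of 28 higher genes (57.1%, against 47.2% of all genes) and 30 of 46 lower genes (65.2%, against 52.7%) had the same sign, and 7 of each were past 2-fold, against 1.44% and 2.03%.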

How the data were processed

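The deposited files give raw UMI counts for every gene in each barcode. Their software was Cell Ranger 7.0.0, per the file headers. The submitters' processing notes name the build mm10, R 4.2.0 and Seurat 4.1.0. Whether intronic reads were counted is not given in the sources used here. The lowest deposited barcode held 500 UMIs, so barcodes had been filtered before deposit.

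The members and gene lists were chosen with earlier results of these data known. Gate markers were fixed, whereas the scoring thresholds were set after the values were seen. Each marker was scaled to its 95th percentile among positive cells, and a cell took the type with the highest mean score if it led by 0.1 and at least 2 markers were detected. UMIs were summed per library and gate (Python 3.11.15, numpy 2.4.6, scipy 1.17.1, scanpy 1.11.5 and pandas 2.3.3). Doublets were kept in the main values, and an alternative removed the highest Scrublet scores at 0.8% per 1000 cells. The automatic Scrublet threshold marked 0 AMH cells and was not used.

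Genes were named by rank: the 12 highest and 12 lowest in granulosa-gated cells, 6 and 6 over all cells and in theca-gated and stroma-gated cells, 4 and 4 in mural cells, and 3 and 3 in macrophage-gated and blood endothelial-gated cells, leaving out predicted genes. All BMP targets and receptors, and up to 4 members of each other list, were added. Srebf2, Por, Inhbb, Fst, Kitl and gate markers are given for their roles. Genes whose UMIs were checked for concentration in 5 cells, and Msx2 for its UMIs, were chosen after their values were seen. Of the 65 genes named by rank, 16 overlap another gene on the same strand in the annotation, Ovgp1, Dpp6, Srd5a1, Robo2 and Kcnb2 among them, so their counts are less certain. Some genes that the rule names are not reported here. The ratio and interval functions were tested on simulated data. The pseudocount shrinks ratios of low genes, so some genes lowered by somewhat more than 2-fold near the level filter are not called, and a first check that asked for a higher share of such genes was missed in theca-gated cells and replaced by one that allows for the pseudocount.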

Additional observations from a re-analysis of the deposited data

Results flagged for a closer look

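BMP/SMAD targets had a median log2 ratio of 1.22 in theca-gated cells and -0.364 in mural smooth muscle-gated cells, opposite directions in 2 cell types; the difference was not tested. Id1 was 1.22 in theca-gated and -1.23 in blood endothelial-gated cells, where the list's median was -0.000201 and 2 of 5 targets lay above 0. Other genes were past 2-fold in opposite directions in a pair of cell types, again untested. Top2a, a topoisomerase of dividing cells, was 1.01 in theca-gated and -1.02 in blood endothelial-gated cells. Prkar2b was 1.01 in macrophage-gated and -2.005 in theca-gated cells. In macrophage-gated cells Prkar2b was 35.9 CPM in control and 77.4 CPM in AMH, against 727 and 715 CPM in granulosa-gated cells, and granulosa markers summed to 187.5 and 416 CPM; their part was not tested. Kcnma1, a potassium channel, was 1.77 in blood endothelial-gated and -1.04 in theca-gated cells, and in blood endothelial-gated cells granulosa markers summed to 199 CPM in control and 458 CPM in AMH, a part that was not tested. Ovgp1 was 1.78 in stroma-gated cells, where 5 AMH cells held 53.2% of its UMIs, and -1.46 in blood endothelial-gated cells. With doublets removed the latter value was 0.359, so the opposite directions did not hold there.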

How the results depend on the processing

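No paired analysis was possible because each group has 1 library. Counts of genes past 2-fold depended on the level filter and on other choices. With a mean of at least 5 CPM the higher genes numbered 16 in granulosa-gated, 105 in theca-gated, 69 in stroma-gated, 71 in blood endothelial-gated and 68 in macrophage-gated cells, and the lower ones 32 in granulosa-gated, 16 in mural, 35 in blood endothelial-gated and 123 in macrophage-gated cells. With no filter the higher genes were 19, 107, 81, 83 and 82 in the same order, and the lower ones 41 over all cells and 32, 18, 40 and 143 in the same order of gates. With each cell weighted equally 13 genes were lower over all cells, and 5 mural, 54 blood endothelial-gated and 66 macrophage-gated genes were higher. A pseudocount of 1 CPM gave 5 lower stroma-gated and 34 lower blood endothelial-gated genes, and median-of-ratios scaling gave 10 lower blood endothelial-gated genes. With doublets removed 7 stroma-gated and 105 blood endothelial-gated genes were higher and 69 blood endothelial-gated genes lower. A doubled gate margin gave 7 higher and 7 lower stroma-gated, 5 higher mural and 31 lower blood endothelial-gated genes. A gate after thinning to 1000 UMIs gave 3 lower mural, 39 lower blood endothelial-gated and 78 lower macrophage-gated genes. The cause of these changes was not tested.

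The granulosa share difference of 11.2 percentage points was 8.72 with at most 10% mitochondrial UMIs, 8.73 with the doubled margin and 8.06 with the thinned gate. The theca share difference of -5.28 points was -2.93, -6.89 and -6.53 under the same settings, -4.40 with doublets removed and -2.30 with the gate on Aldh1a1 and Lhcgr, which was chosen after seeing the data. The stroma share difference of -8.25 points was -3.50 with the thinned gate. The granulosa cycling share difference of 6.26 points was 0.269 when at least 8 UMIs were asked for.

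Of 107 values past 2-fold that are named by rank or list, 105 to 107 kept their direction under each alternative that covers all gates, and 90 to 107 stayed past 2-fold. The reversed ones were Dnah12 in stroma-gated cells (-0.227, thinned gate), Ovgp1 (0.359, doublets removed), Cenpe (0.111, cells weighted equally) and Nrxn3 (0.284, doubled margin) in blood endothelial-gated cells, and Dpp6 (-0.277, doublets removed) and Cd209a (0.355, doubled margin, and 0.364, thinned gate) in macrophage-gated cells. Of 148 list medians 58 changed sign in at least 1 setting, none of them larger than 0.361. The theca medians of the cholesterol list (-1.415 to -1.104) and of the BMP targets (0.954 to 1.44) did not.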

Other observations

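Some genes under the level filter were close to absent on one side. A rule chosen after the data were seen asked for at least 100 UMIs in AMH or control and a ratio interval past 8-fold. In granulosa-gated cells 7512 genes under the filter had that many UMIs, of which 4 were higher and 0 lower by the rule. Notum, a secreted enzyme that inactivates Wnt ligands, had 36 UMIs in control and 582 in AMH, and 55 and 291 UMIs in the doxorubicin pair. Ankrd63 had 55 and 712 UMIs, and 60 and 378 in the doxorubicin pair. A2ml1 had 205 and 2764 UMIs, but 5 and 7 in the doxorubicin pair, and 5 cells held 61.8% of its AMH UMIs. Msx2 is the remaining one.

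In cells gated on Aldh1a1 and Lhcgr the same rule gave 3 higher and 6 lower genes of 5286 considered. Hsd3b6, a relative of Hsd3b1, had 39 UMIs in control and 348 in AMH, and 29 and 332 in the doxorubicin pair. Hsd3b6 and Hsd3b1 belong to a family of genes of similar sequence, so the split of reads between them is uncertain. Nefh, a neurofilament subunit, had 358 and 5 UMIs, and 223 and 7 in the doxorubicin pair. Pla2g5, a secreted phospholipase, had 571 and 29 UMIs, and the water channels Aqp2 and Aqp5 had 619 and 25 and 747 and 24 UMIs. The other higher genes were Ibsp, at 12 and 145 UMIs, and Ccl7, at 10 and 120. In the doxorubicin pair Ibsp had 55 and 60 UMIs and Ccl7 27 and 71. In stroma-gated cells the rule gave 10 higher and 1 lower of 6055 genes considered. Lcn2 had 35 and 289 UMIs there but 3 and 4 in the doxorubicin pair, while Rp1 had 48 and 405, and 9 and 23. The lower gene, Saa3, had 359 and 17 UMIs, and 401 and 17 in the doxorubicin pair.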
